A study of Mus musculus with 32 samples.

Results

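Rab GTPases form a family of small guanine nucleotide binding proteins that mark the membranes of the cell. The members were the genes whose symbol is Rab followed by a number and at most one letter and one more digit, in the expression tables of both cell types of an MLL-Af4 leukemia model in the mouse. The rule found 54 members among the 23620 genes that both tables list. It matched 57 genes in the Lin- table, of which *Rab3c*, *Rab4b* and *Rab9b* were absent from the CD11b+ table. *Rab4a*, *Rab41* and *Rab43* were not analysed here. Genes of the Rab cycle with longer symbols, such as *Rabggtb* or *Rab3gap1*, are no members and enter through 4 lists of regulators and effectors.

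A Rab protein cycles between a GDP-bound form in the cytosol and a GTP-bound form on a membrane. Exchange factors load it with GTP, GTPase activating proteins switch it off, and a GDP dissociation inhibitor extracts it by its prenyl anchor, while in the GTP form it recruits effectors such as tethers and motors. Each member is known for a compartment or a transport step, and in myeloid cells these steps include phagocytosis, granule release and the delivery of material to lysosomes. IGF2BP3 is an oncofetal RNA binding protein that binds mRNA and pre-mRNA.

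The study asked what IGF2BP3 does in leukemia driven by MLL-Af4, a fusion of the chromatin regulator MLL with Af4. It compared WT/MLL-Af4 with I3KO/MLL-Af4 cells, I3KO being a homozygous germline deletion of *Igf2bp3* that arose through leaky Vav1-Cre activity on a floxed allele, in C57BL/6 mice. All groups carried MLL-Af4, delivered by a retrovirus. Lin- cells were lineage-depleted bone marrow cells, transduced, selected with G418 and grown in culture with cytokines, among them SCF and IL-6, and CD11b+ cells were, by the protocol, enriched with magnetic beads from splenic tumors of leukemic mice. RNA-seq covered 3 libraries of each genotype in each cell type. For IGF2BP3 eCLIP, in which RNA is UV-crosslinked to protein, trimmed with RNase I and immunoprecipitated, WT/MLL-Af4 cells gave 6 Lin- libraries (3 biological, 3 technical) and 4 CD11b+ libraries (2 biological, 2 technical), each with its own size-matched input (smInput). Technical replicates are not tied to biological ones in the labels, and no age is given for the donors of the Lin- cultures. For the transplanted mice, the methods give marrow of 8-week-old females, transduced and given to recipients of the same age after lethal irradiation. Every eCLIP label carries the prefix bm, also in CD11b+ cells, which the protocol takes from spleen, so the tissue behind the CD11b+ eCLIP peaks, and whether it was that of the CD11b+ RNA, is not settled.

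Transcript levels were read from the authors' mean normalised count per gene, a mean over the 6 libraries of a cell type and so over both genotypes, which has no spread. The tables were scaled separately, and levels were compared between them by percentile within a table. The effect of the deletion on *Rab* transcripts is not reported, because only the authors' own comparison columns hold it. The filtered eCLIP libraries held 4040 to 10042 peaks in Lin- and 7085 to 10054 in CD11b+ cells. Read depth per library is unknown, so the lack of a peak does not show that IGF2BP3 left a transcript unbound. In the Lin- table, 5 of 6 progenitor markers lay in the top 10% of genes, among them *Kit* and *Cd34*, against 2 of 6 in the CD11b+ table. Those 2 were *Myb* (percentile 99.7 in Lin- and 99.9 in CD11b+) and *Hoxa9* (95.1 and 92.8), which lay in the top 10% of both. Of the myeloid markers, 3 of 7 measured ones lay in the top 10% of the Lin- table, against 5 of 8 in the CD11b+ table. *Itgam*, which encodes CD11b itself, had a mean of 17.0 normalised counts there (percentile 41.9), so this defining transcript went against the label while *Csf1r* (15008) and *Lyz2* (72146) did not. The 4 B cell markers summed to 36.6 in Lin- and 416 in CD11b+ cells and the 4 T cell markers to 17.7 (3 measured) and 17.3.

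*Rab* transcripts were abundant in both cell types. The median member lay at percentile 75.4 of the Lin- table and 73.6 of the CD11b+ table, with a median mean count of 946.6 (54.7 over all genes) and 541.9 (47.3 over all genes). A mean of at least 10 was reached by 49 members in Lin- cells (90.7%, against 62.8% of all genes) and by 44 in CD11b+ cells (81.5%, against 62.5%). The range was wide, from 0.655 for *Rab39b* to 18034 for *Rab44* in Lin- cells and from 0.332 to 19762 for the same genes in CD11b+ cells.

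*Rab44*, which encodes a large atypical Rab with EF-hands that has been tied to granule release in mast cells, stood apart from the rest. Its transcript made up 19.6% of the summed mean count of the members in Lin- and 22.9% in CD11b+ cells, and it ranked 115th of 26560 and 82nd of 25887 genes. Per kilobase of exon, the scale on which genes can be set side by side, the same 5 members led in both tables. *Rab44* came first (3835 normalised counts per kb in Lin-, 4202 in CD11b+), followed by the early endosome Rab *Rab5c* (2286 and 2987) and the late endosome Rab *Rab7* (1853 and 2416). *Rab1b*, which acts between the endoplasmic reticulum and the Golgi, had 1545 and 2137, and *Rab27a*, which docks lysosome-related organelles at the plasma membrane, had 1519 and 1588. Without a spread, neighbours in this order cannot be told apart by a test.

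By compartment, the 6 early endosome Rabs had the highest median level, at percentile 89.4 in Lin- and 94.0 in CD11b+ cells. Among them the 3 forms of Rab5, which drive the fusion of early endosomes, differed in level. *Rab5c* was above *Rab5b* (708 and 1237 normalised counts per kb in Lin- and CD11b+) and *Rab5a* (501 and 279). The 12 Rabs of recycling endosomes and the plasma membrane followed at medians of 81.4 and 82.1, and the 9 of late endosomes, lysosomes and related organelles at 78.9 and 75.5. The 15 of the endoplasmic reticulum and Golgi lay lower, at 61.8 and 61.4, a list that spans *Rab1a* and *Rab2a* as well as the weakly expressed *Rab39b*. The 8 secretory Rabs had medians of 66.4 and 57.0, with *Rab44* and *Rab27a* at the top and *Rab3b* and *Rab26* near the bottom. The 2 ciliary Rabs (*Rab23* and *Rab28*) lay at a median of 61.5 and 64.0, and the 2 with a SOCS box (*Rab40b* and *Rab40c*) at 66.6 and 39.5.

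Shifts between the tables went both ways, with a median signed difference in percentile of 0.0882 points, 28 members being higher in CD11b+ and 26 in Lin- cells. A difference over 10 points was seen toward CD11b+ for 3 members and toward Lin- for 11. Toward CD11b+, *Rab39*, which has been linked to phagosome maturation, moved most, by 24.4 points (mean normalised count 62.5 in Lin- and 614 in CD11b+). *Rab3d*, a Rab of secretory granules, moved by 15.1 points (1263 and 3129) and *Rab29*, a trans-Golgi and lysosome Rab that recruits the kinase LRRK2, by 14.2 points (262 and 623). *Rab32* (9.44 points) and *Rab5b* (8.03 points) came next. By median percentile, neutrophil markers also lay higher in the CD11b+ table (99.9, against 90.1 in Lin-), as did myeloid markers (95.8 against 87.4). The 6 neutrophil markers summed to 121727 in Lin- and 203468 in CD11b+ cells, with *S100a8* at 2084 and 39348. These counts, and those that follow, come from separately scaled tables. *Mpo* (101212 and 84102) lay at percentile 99.99 in both, so its counts give no direction. The myeloid markers summed to 38668 (7 measured) and 115448 (8 measured), with *Itgax* going the other way (2151 and 728, percentiles 87.4 and 77.9). Of the erythroid markers, *Hba-a1* was at 5.85 and 1268 and *Hbb-bt* at 181 and 915, while *Klf1* was at 79.1 and 16.0. Their part in the shifts toward CD11b+ was not tested.

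Larger shifts were found toward Lin-. *Rab38*, which sorts cargo to melanosomes and related organelles, had a mean of 785 normalised counts in Lin- and 1.63 in CD11b+ cells, a shift of -53.2 percentile points. *Rab27b*, the paralogue of *Rab27a* known from platelet granules, had 199 and 0.690 (-47.9 points). *Rab17*, an epithelial Rab, had 95.8 and 0.961 (-40.0 points), *Rab40b* 22.3 and 0.492 (-36.9 points) and *Rab15* 5.77 and 0.668 (-21.8 points). Each of these members lay below a mean of 10 in CD11b+ cells, and *Rab15* in Lin- cells too. So close to the floor, the size of these shifts is uncertain. The 3 megakaryocyte markers moved the same way, summing to 2389 in Lin- and 59.8 in CD11b+ cells, with *Itga2b* at 1922 and 42.9, and their part in these differences was not tested. Paralogues parted, in that *Rab27a* lay at percentiles 95.4 and 97.2 and *Rab27b* at 59.2 and 11.3, and *Rab32* lay at 81.7 and 91.1 where *Rab38* lay at 73.0 and 19.8.

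**Figure D1:**
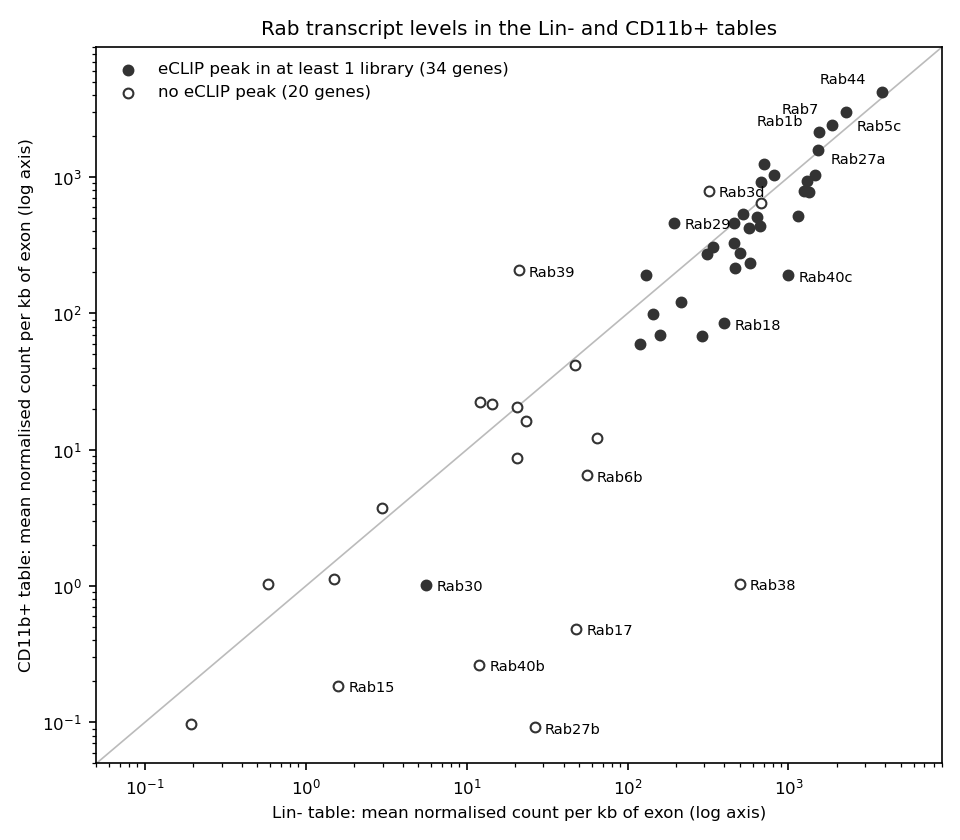
Each point is 1 of 54 *Rab* genes, with the authors' mean normalised count per kb of exon in Lin- cells (x axis, log) against that in CD11b+ cells (y axis, log); filled points have an eCLIP peak in at least 1 library (34 genes), open points none (20 genes), and the line marks equal values. *Rab44* is the highest point (3835 and 4202), *Rab39* lies above the line, and *Rab38*, *Rab27b*, *Rab17*, *Rab40b* and *Rab15* lie far below it. The values were scaled separately in each cell type, so the line is only a guide.

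IGF2BP3 peaks fell on 25 of 54 members in at least 1 Lin- library (46.3%), against 26.5% of all genes of that table, and on 28 of 54 in at least 1 CD11b+ library (51.9%), against 25.6%. Since peaks are called more readily on abundant transcripts, the share was also taken over genes with a mean of at least 10. It was then 25 of 49 members (51.0%) against 39.8% of genes in Lin- cells and 27 of 44 (61.4%) against 37.1% in CD11b+ cells. A peak in at least 2 biological libraries was found on 12 members in Lin- cells (22.2%, against 13.7% of all genes) and on 6 in CD11b+ cells (11.1%, against 10.2%), the last being near the share of all genes. Members with a peak were more abundant than those without, with a median mean count of 2595 against 95.8 in Lin- cells and 1976 against 29.8 in CD11b+ cells. Their genes were also longer in the median, 26.7 against 22.1 kb and 27.6 against 15.2 kb. How far level and length set these shares was not tested.

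Peaks were found in both cell types on 19 members, which is 76.0% of those with a Lin- peak and 67.9% of those with a CD11b+ peak. Over all genes of both tables these shares were 65.7% and 69.7%, and 19.4% of genes had a peak in both cell types against 35.2% of members. A further 6 members had peaks in Lin- cells alone and 9 in CD11b+ cells alone, so that 34 (63.0%) had one in either, against 37.9% of all genes. All 6 early endosome Rabs had a peak in at least 1 library of each cell type. For *Rab5a* and *Rab5b* the CD11b+ peaks came from technical library 4 alone, and *Rab21* had a peak in 1 library of each cell type. Among recycling Rabs 8 of 12 had one in either cell type, among late endosome and lysosome Rabs 7 of 9, and among those of the endoplasmic reticulum and Golgi 8 of 15. Of the 8 secretory Rabs, *Rab44*, *Rab27a* and *Rab37* had peaks. Of the 20 members without a peak in any library, *Rab3d* and *Rab6a*, a Golgi Rab (2332 and 2219 normalised counts), were the most abundant.

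**Figure D2:**
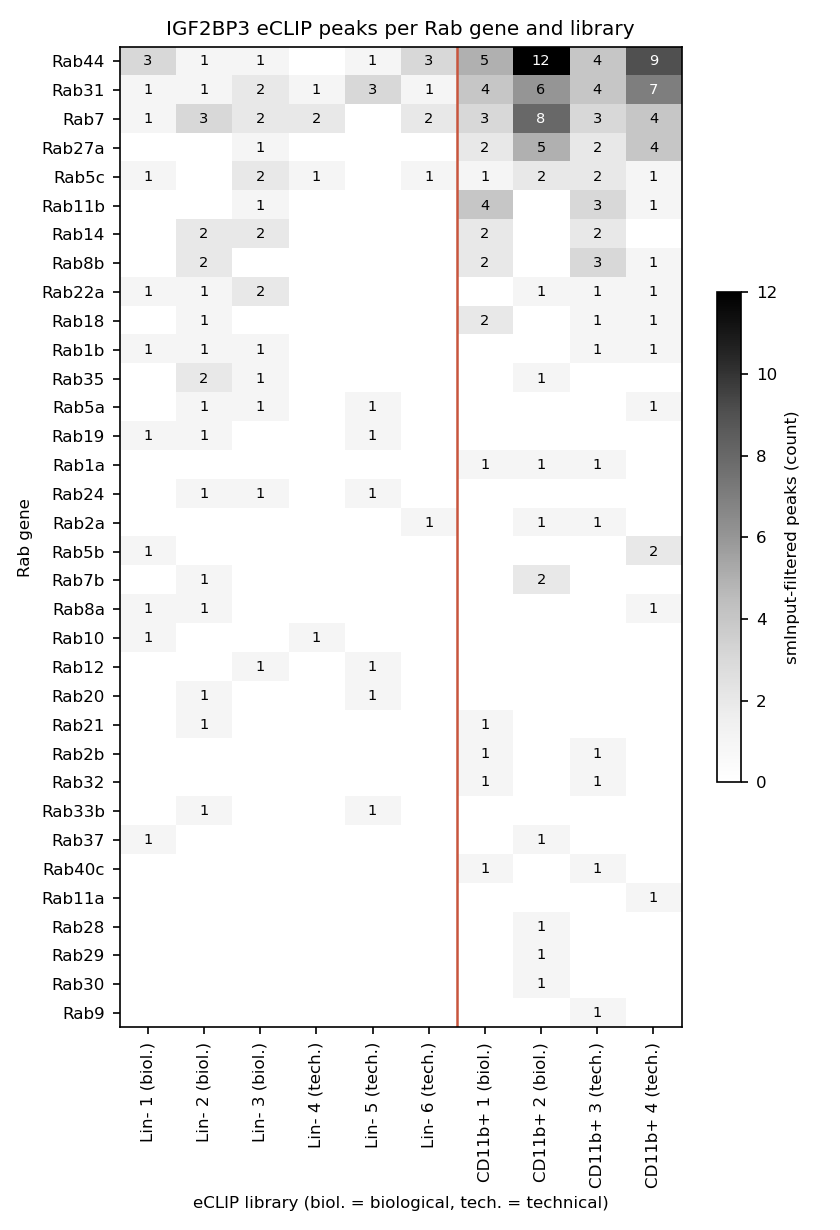
Counts of smInput-filtered peaks on the 34 *Rab* genes with at least 1 peak (rows) in the 10 eCLIP libraries (columns, biological or technical), blank cells being 0. *Rab44*, *Rab31* and *Rab7* hold the most, with up to 12 peaks in 1 library, and most other members hold 1 or 2 in a few libraries.

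Biological libraries of the 2 cell types did not overlap in peak number for 4 of 32 members in the direction of CD11b+ (12.5%, against 9.91% of all genes with a peak in such a library). They did not overlap for 1 of 32 in the direction of Lin- (3.13%, against 6.65%). Both shares were close to those of all genes. The 4 were *Rab44*, *Rab31*, *Rab27a* and *Rab1a*, and the 1 was *Rab1b*.

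*Rab44* (ENSMUSG00000064147, GRCm38 chr17:29114145-29148980, plus strand) carried 3, 1 and 1 peaks in the biological and 0, 1 and 3 in the technical Lin- libraries. In CD11b+ cells it carried 5 and 12 in the biological and 4 and 9 in the technical libraries, so that the groups did not overlap. Peaks that overlap between libraries were merged into sites, which gave 13 *Rab44* sites in CD11b+ cells, a number that 1.04% of the 7382 genes with a CD11b+ peak reached, and 5 sites in Lin- cells (14.2% of 7962 genes). Of its 14 sites, 9 lay within 852 bases of 1 intron, chr17:29138263-29139114, and 8 of these 9 held the hexamer ACACAC or CACACA on the transcribed strand. The first of them had a peak in all 4 CD11b+ libraries and in Lin- library 3, while 5 of the other CA sites had a peak in CD11b+ library 2 alone. Peaks that abut without overlapping were kept apart, as at chr17:29138671-29138701 and chr17:29138702-29138745 in this run. Counts of sites, and of peaks per library, can therefore include neighbouring pieces of 1 repeat. CD11b+ smInput library 3 had a peak in this run as well, chr17:29138770-29138859, which overlaps 2 of the sites found in eCLIP library 2 alone. Whether reads from such repeats were placed in 1 genomic position was not tested. Another 3 sites lay within 645 bases, at chr17:29135639-29136283, in the 5′UTR of 1 annotated transcript, with centres in introns of the other. The longest of these had a peak in all 4 CD11b+ libraries and in Lin- libraries 1 and 6.

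*Rab31* (ENSMUSG00000056515, chr17:65651729-65772752, minus strand), a Rab22-like GTPase of the trans-Golgi and endosomes, had peaks in all 10 libraries. The biological Lin- libraries held 1, 1 and 2 and the technical ones 1, 3 and 1, whereas the biological CD11b+ libraries held 4 and 6 and the technical ones 4 and 7. Here, too, the CD11b+ libraries lay above the Lin- libraries. Of its 8 sites, 4 lay in 438 bases near the start of the first intron, chr17:65770370-65770807, and all 4 held GTGTGT or TGTGTG. In this run, chr17:65770427-65770527 had a peak in Lin- libraries 1 and 2 and all 4 CD11b+ libraries, and chr17:65770617-65770701 in Lin- libraries 4 and 5 and all 4 CD11b+ libraries. No *Rab* site was found in more than 6 libraries. Another UG site, chr17:65759867-65759906, had a peak in the 4 CD11b+ libraries and in none from Lin- cells. The CA site chr17:65717283-65717389 had peaks in Lin- libraries 3, 5 and 6, and CD11b+ smInput library 4 had a peak on it too.

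*Rab7* (ENSMUSG00000079477, chr6:87999106-88045270, minus strand), which directs late endosomes to lysosomes, held 1, 3 and 2 peaks in the biological and 2, 0 and 2 in the technical Lin- libraries. Its CD11b+ libraries held 3 and 8 (biological) and 3 and 4 (technical), so the groups met at 3 peaks. The places differed more than the numbers. A run of 5 UG sites in 506 bases of the first intron, chr6:88033845-88034350, had peaks from CD11b+ cells at all 5 and from Lin- cells at 1. At chr6:88005211-88005262, which ends at the closing AG of an intron, all 3 biological Lin- libraries and no CD11b+ library had a peak. The gene model *Gm5577*, on the opposite strand, overlaps this site and the one at chr6:88004295-88004342, which lies at the next intron's end and had peaks in Lin- libraries 3 and 4.

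*Rab27a* (ENSMUSG00000032202, chr9:73044854-73097629, plus strand) had a peak in Lin- library 3 and in no other Lin- library, and 2, 5, 2 and 4 peaks in the CD11b+ libraries, the first pair being biological. It had 6 CD11b+ sites, 4 of them in CD11b+ libraries 2 and 4 or 4 alone, of which 3 held a CA and 1 a UG hexamer. The other 2 were absent from library 4 and held neither. *Rab1a* (endoplasmic reticulum to Golgi) had 0 peaks in the 6 Lin- libraries and 1, 1, 1 and 0 in the CD11b+ libraries. Its paralogue *Rab1b* had 1, 1 and 1 in the biological and 0 in the technical Lin- libraries, with 0 and 0 in the biological and 1 and 1 in the technical CD11b+ libraries. The 5 *Rab1b* peaks were at 1 site, chr19:5100568-5100666, so its difference between cell types went the other way in the technical libraries.

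**Figure D3:**
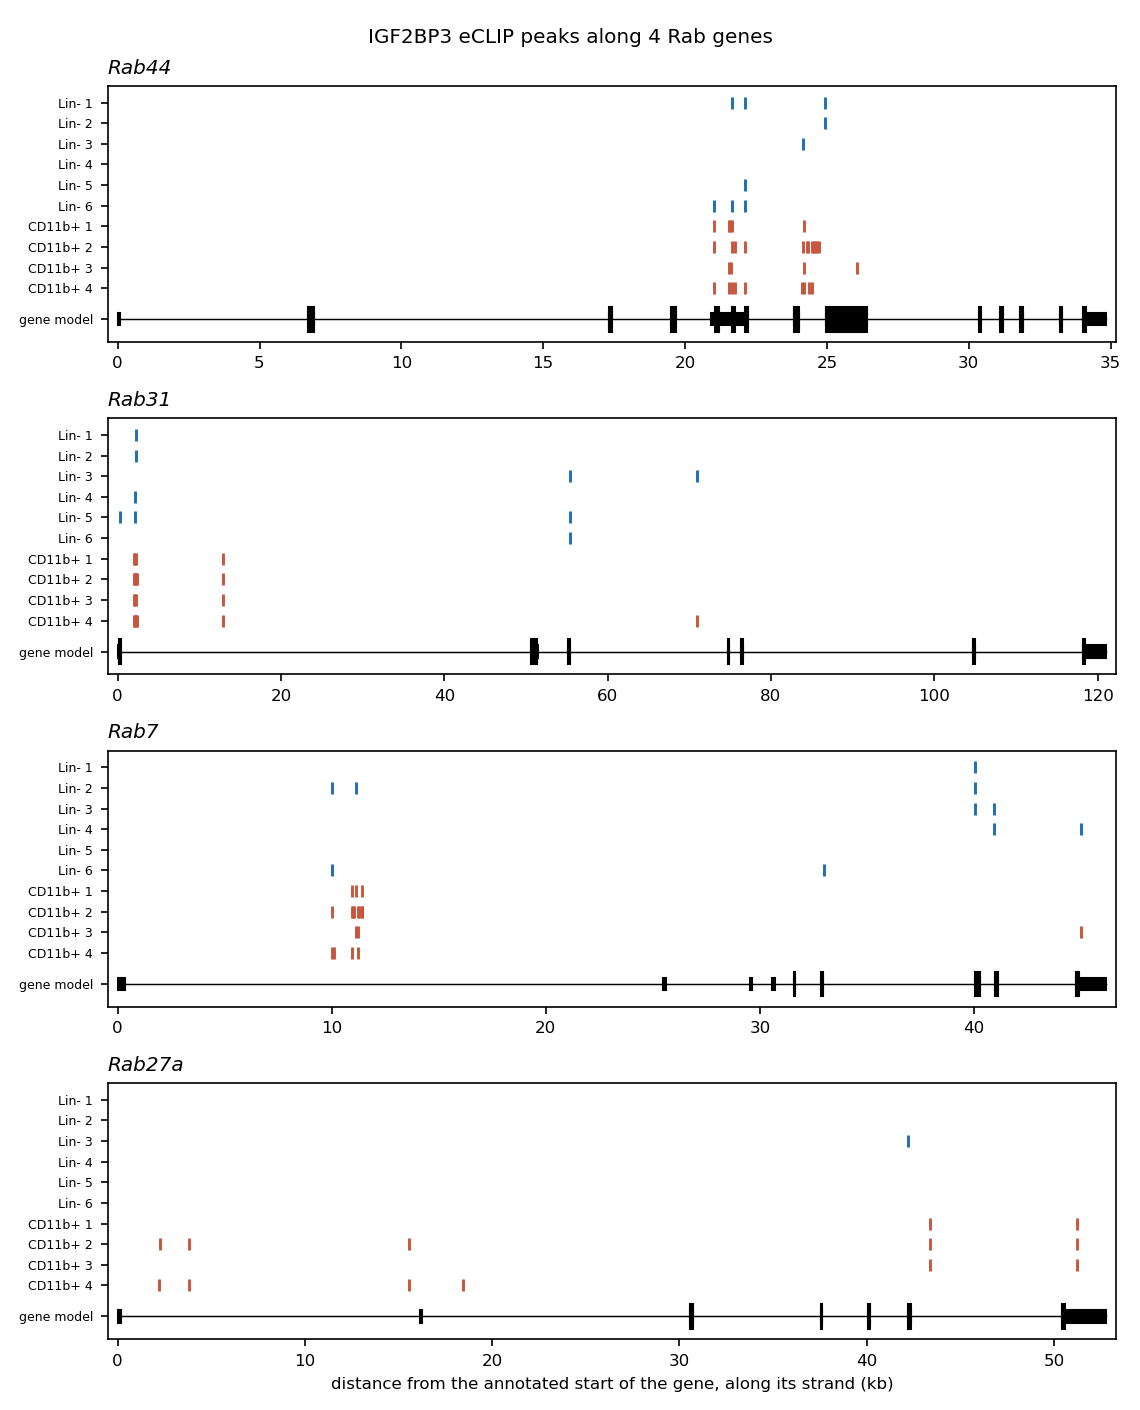
Peaks of each eCLIP library (rows, Lin- blue, CD11b+ red) along *Rab44*, *Rab31*, *Rab7* and *Rab27a*, with distance from the annotated gene start in kb on the x axis and the exons of all basic transcripts drawn at the foot of each panel (tall boxes coding, low boxes untranslated). CD11b+ peaks crowd into runs of 852, 438 and 506 bases in the first 3 genes, and the Lin- peaks of *Rab7* lie mostly at the exons near its end.

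At 12 sites, peaks came from both biological CD11b+ libraries, and 7 of these sites held a CA or UG hexamer (1 CA, 6 UG). Of the 12, 1 was near a 3′ splice site. The sequences shown next, of 7 sites on these 4 genes, were picked as examples of repeats under CD11b+ peaks and not by that rule. They were read from GRCm38 on the transcribed strand with T for U. Capitals mark every stretch covered by GTGTGT or TGTGTG in the first 4, which are UG repeats, and by ACACAC or CACACA in the others, which are CA repeats.
Rab31, chr17:65770427-65770527, minus strand: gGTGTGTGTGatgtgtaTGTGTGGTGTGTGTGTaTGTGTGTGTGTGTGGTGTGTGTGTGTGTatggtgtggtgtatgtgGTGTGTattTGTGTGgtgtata
Rab31, chr17:65770617-65770701, minus strand: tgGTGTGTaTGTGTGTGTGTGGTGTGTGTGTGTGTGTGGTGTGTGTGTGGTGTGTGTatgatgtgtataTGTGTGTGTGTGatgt
Rab7, chr6:88034264-88034350, minus strand: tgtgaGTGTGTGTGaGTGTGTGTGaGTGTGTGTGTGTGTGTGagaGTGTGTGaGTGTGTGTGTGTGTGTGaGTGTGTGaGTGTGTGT
Rab7, chr6:88033845-88033899, minus strand: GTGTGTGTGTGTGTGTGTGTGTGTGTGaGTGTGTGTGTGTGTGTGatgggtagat
Rab44, chr17:29138263-29138378, plus strand: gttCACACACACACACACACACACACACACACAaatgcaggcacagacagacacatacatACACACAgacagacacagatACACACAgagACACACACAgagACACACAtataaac
Rab7, chr6:88035233-88035291, minus strand: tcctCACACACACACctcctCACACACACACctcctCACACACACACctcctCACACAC
Rab27a, chr9:73048638-73048690, plus strand: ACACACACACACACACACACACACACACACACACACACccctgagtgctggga

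Peaks came from 2 or more biological Lin- libraries at 6 sites, 5 of which held none of these hexamers. Of the 5, the 4 shown here run to, or over, the last bases of an intron, and capitals mark its closing AG. The other, in *Rab19* at chr6:39385213-39385276, is a repeat of cctctg within an intron, 1337 bases from the nearest 3′ splice site.
Rab7, chr6:88005211-88005262, minus strand: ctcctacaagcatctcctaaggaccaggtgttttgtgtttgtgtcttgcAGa
Rab44, chr17:29139066-29139114, plus strand: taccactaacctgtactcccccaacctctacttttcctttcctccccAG
Rab35, chr5:115643526-115643595, plus strand: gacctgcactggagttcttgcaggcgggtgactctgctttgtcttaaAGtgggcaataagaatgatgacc
Rab1b, chr19:5100568-5100666, minus strand: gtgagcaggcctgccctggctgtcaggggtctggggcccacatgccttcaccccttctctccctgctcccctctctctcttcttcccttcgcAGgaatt

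*Rab35* (ENSMUSG00000029518, chr5:115631908-115647736, plus strand), a Rab of fast recycling and cytokinesis, had 0, 2 and 1 peaks in the biological Lin- libraries, 0 in the technical ones, and 1 in CD11b+ library 2 alone. Its site at chr5:115643526-115643595 had peaks in Lin- libraries 2 and 3. At the *Rab1b* site the bases before the AG were rich in C and T, and the AG precedes an exon in 2 of 3 transcripts while 1 transcript reads through it.

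The remaining members with peaks in at least 2 biological libraries of a cell type had few each. *Rab5c* held 1, 0 and 2 peaks in the biological and 1, 0 and 1 in the technical Lin- libraries, and 1, 2, 2 and 1 in the CD11b+ libraries, all 4 of which had a peak at chr11:100715770-100715811 in its 3′UTR. *Rab5a* held 0, 1 and 1 in the biological Lin- libraries and 1 in 1 of the 4 CD11b+ libraries, a technical one. The early endosomal *Rab22a* held 1, 1 and 2 in the biological Lin- libraries, 0 in the technical ones, and 0, 1, 1 and 1 in the CD11b+ libraries. These 3 thus had peaks in both cell types with overlapping numbers.

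*Rab14*, which cycles between the Golgi and endosomes, held 0, 2 and 2 in the biological Lin- libraries, 0 in the technical ones and 2, 0, 2 and 0 in the CD11b+ libraries, at 8 sites none of which recurred. *Rab24*, linked to autophagy, held 0, 1 and 1, *Rab19* 1, 1 and 0 and *Rab8a*, a Rab of polarised exocytosis, 1, 1 and 0 in the biological Lin- libraries. No CD11b+ library had a peak on *Rab24* or *Rab19*, and 1 technical library had one on *Rab8a*. The *Rab19* peaks, together with 1 from technical library 5, lay at 1 site. *Rab11b*, which returns receptors from recycling endosomes, held 4 and 0 peaks in the biological and 3 and 1 in the technical CD11b+ libraries and 1 in Lin- library 3. Its 3 sites with 2 libraries each came from CD11b+ libraries 1 and 3.

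CD11b+ libraries resembled each other in pairs. Of the 30 Rab peaks of library 1, 60% overlapped a peak of technical library 3 and 43.3% one of biological library 2. Of the 43 of library 2, 51.2% overlapped technical library 4 and 34.9% biological library 1. Lin- libraries shared less, with 38.5% of the 13 peaks of library 1 overlapping library 2 and 15.4% overlapping library 3.

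Over all members, 115 sites on 34 genes were found, of which 89 (77.4%) lay in introns, 12 in 3′UTRs, 9 in 5′UTRs and 5 in coding exons. A single library gave 66 of them. Sites were 8 to 183 bases long, with a median of 53. A CA hexamer (ACACAC or CACACA) was present in 20, a UG hexamer (GTGTGT or TGTGTG) in 21, and 22 had their centre within 50 bases of a 3′ splice site, none of which held either hexamer. Of the 38 sites found in Lin- cells alone, 16 were near a 3′ splice site and 2 held a hexamer, and of the 61 found in CD11b+ cells alone, 3 were near a 3′ splice site and 31 held a hexamer. Among the 16 sites common to both cell types the numbers were 3 and 8.

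This contrast was not confined to the members. Near a 3′ splice site lay 76.9%, 27.3% and 44.4% of the Rab peaks of the 3 biological Lin- libraries, where 58.3%, 21% and 43.8% of all peaks did, and 10% and 6.98% in the biological CD11b+ libraries, where 11.4% and 9.90% of all peaks did. UG hexamers were found in 7.69%, 9.09% and 5.56% of Rab peaks in Lin- libraries (6.30%, 6.88% and 6.25% of all peaks) and in 26.7% and 39.5% in CD11b+ libraries (20.3% and 25.2%). The Rab peaks thus followed their libraries in both features. Both features were picked after their values had been seen, so the differences between cell types, -41.1 points near a 3′ splice site (two-sided exact permutation p = 0.2) and 25.7 points for UG (exact permutation p = 0.1, the smallest possible), are descriptions and no independent evidence.

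The CA share of Rab peaks was 7.78% ± 3.28 (SD, n = 3) in Lin- and 17.9% ± 20.7 (SD, n = 2) in CD11b+ libraries, a difference of 10.2 points that did not exceed the spread (two-sided exact permutation p = 0.6). It rested on 1 library, since CD11b+ library 1 had 3.33% and library 2 had 32.6%, and without library 2 the difference was -4.45 points. Over all peaks the same libraries had 8.90% and 20.4%, and the Lin- libraries 4.65%, 7.25% and 9.06%. The intronic share was 75.8% ± 16.4 (SD, n = 3) in Lin- and 77.4% ± 5.70 (SD, n = 2) in CD11b+ cells, which differed by 1.59 points (two-sided exact permutation p = 1.0).

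**Figure D4:**
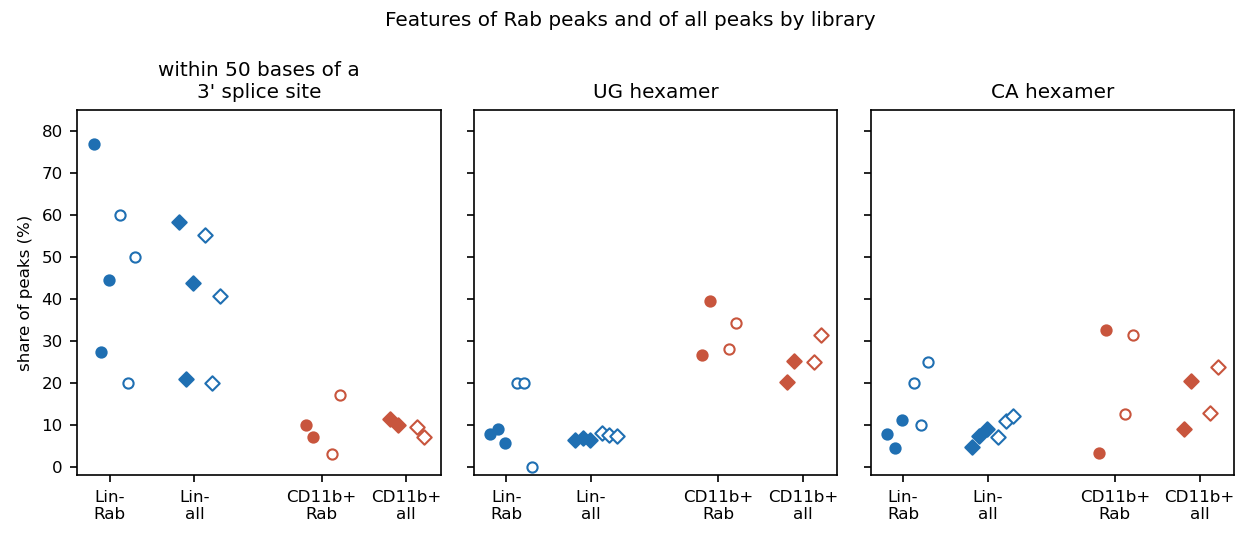
Percent of peaks near a 3′ splice site (left), with a UG hexamer (middle) and with a CA hexamer (right), per eCLIP library, for Rab peaks (circles) and all peaks (diamonds), filled for biological and open for technical libraries. The Rab peaks of each cell type lie around the level of all peaks of that cell type, with CD11b+ libraries lower on the left and higher in the middle than the biological Lin- libraries.

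As a share of each library's peaks, Rab peaks made up 0.177%, 0.219% and 0.207% in the biological Lin- libraries and 0.352% and 0.428% in the biological CD11b+ libraries, so the groups did not overlap. The means were 0.201% ± 0.0219 (SD, n = 3) and 0.390% ± 0.0535 (SD, n = 2), a difference of 0.189 points at p = 0.1 by a two-sided exact permutation test, the smallest p this design allows. Technical libraries gave 0.124%, 0.154% and 0.177% in Lin- and 0.422% and 0.494% in CD11b+ cells. Leaving out *Rab44* lowered the difference to 0.121 points (exact permutation p = 0.1), and leaving out *Rab44* and *Rab31*, chosen after their counts were seen, to 0.0828 points (exact permutation p = 0.2).

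In the smInput libraries, the background of the assay, peaks were called with other deduplication and peak settings, so their shares are not measured in quite the same way. Rab peaks were few there, 0 to 4 per Lin- and 1 to 5 per CD11b+ library. The library without one, Lin- smInput 5, held 217 peaks where the other 9 held 1047 to 1885, and a count of 0 in 217 allows a share of up to 1.38%, counting error alone. Before filtering, the eCLIP share was 0.175% ± 0.0189 in Lin- cells and the smInput share 0.173% ± 0.0870 (SD, n = 3 each), a difference of 0.00195 points with eCLIP higher in 1 of 3 pairs (two-sided exact permutation p = 1.0). In CD11b+ cells it was 0.340% ± 0.0363 against 0.147% ± 0.132 (SD, n = 2 each), a difference of 0.193 points with eCLIP higher in 2 of 2 pairs. Its p was 0.333 by the same exact permutation test, the smallest that 2 against 2 allow. A difference from smInput was thus not detectable in Lin- cells with 3 pairs, nor in CD11b+ cells with 2 pairs. A site in an intron of *Rab30*, chr7:92742376-92742390, was called in 9 of 10 smInput libraries, and another in an intron of *Rab27a* in 5, neither on an eCLIP site. Single smInput libraries had peaks that overlap eCLIP sites on *Rab44*, *Rab31* and *Rab20*.

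**Figure D5:**
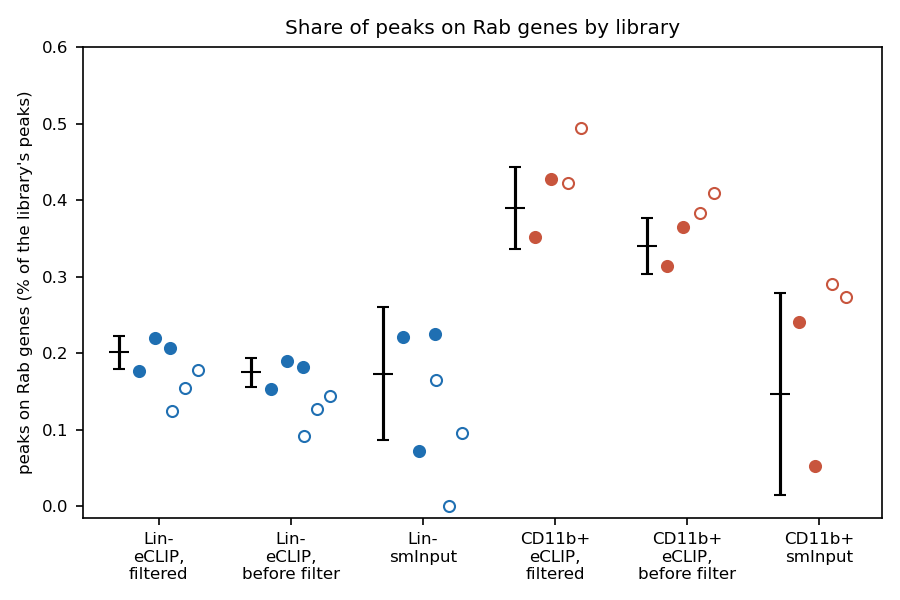
Percent of a library's peaks that lie on *Rab* genes, per library, in eCLIP after and before the smInput filter and in smInput, with the mean and SD of the libraries numbered as biological beside each group (open circles, the other libraries). CD11b+ eCLIP libraries lie at 0.352% to 0.494% after the filter, above the Lin- eCLIP libraries at 0.124% to 0.219%, and the smInput libraries spread from 0% to 0.290%.

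The machinery that acts on Rab proteins carried peaks as well. Of factors for prenylation and recycling, 4 of 8 had a peak in Lin- and 6 of 7 in CD11b+ cells, of exchange factors 16 of 31 and 22 of 31, of GTPase activating proteins 22 of 38 and 24 of 39, and of effectors 27 of 51 and 29 of 50. These are shares of 50% to 57.9% in Lin- and 58.0% to 85.7% in CD11b+ cells. The members' own shares were 46.3% and 51.9% and those of all genes 26.5% and 25.6%. Over genes with a mean of at least 10 they were 39.8% and 37.1%. The lists had median levels between percentiles 75.03 and 81.9, above the median gene. A peak in at least 2 biological libraries was found on 4, 9, 9 and 13 genes of the lists in Lin- cells, in that order. In CD11b+ cells it was found on 2, 6, 10 and 11. Over all genes this stricter rule was met by 13.7% and 10.2%.

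The gene with the most sites of each list had 4 to 16. *Rin3*, an exchange factor for the Rab5 group, held 2, 3 and 7 peaks in the biological and 1, 2 and 2 in the technical Lin- libraries and 6, 8, 7 and 7 in the CD11b+ libraries, at 16 sites. *Myo5a*, the myosin V motor that works with *Rab27a*, held 1, 4 and 2, then 2, 7 and 1, and 9, 5, 6 and 7 peaks in the same order of libraries, also at 16 sites. *Tbc1d2b*, a GTPase activating protein of the TBC family, held 3, 1 and 0, then 2, 1 and 0, and 2, 7, 4 and 4, at 11 sites. *Rabggtb*, the catalytic subunit of the enzyme that prenylates Rab proteins, had peaks in every library, 6, 3 and 4, then 7, 3 and 2, and 1, 8, 2 and 6, at 4 sites.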

How the data were processed

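The members and lists were chosen with earlier results of these data known. Per the labels and the methods, strand-specific RNA-seq reads were aligned to mm10 with STAR 2.5.3a and masked for repeats with Bowtie2. The authors deposited 1 table per cell type, made with DESeq2 (and fdrtool in Lin- cells). Its mean normalised count is a signal averaged by the authors over 6 libraries. The other deposited columns, log2 fold changes between genotypes with standard errors, statistics and p-values, and a mark for eCLIP targets, were not used. The authors called eCLIP peaks per library with CLIPper and removed those overlapping smInput peaks. Per the file headers, deduplication and peak settings differed between eCLIP and smInput. The value deposited with each peak was read as the CLIPper p-value and used in 1 alternative. Read depth is unknown, so the number of peaks limits precision.

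Peaks were joined to genes by Ensembl ID, and overlapping peaks on 1 strand were merged into sites, while peaks that only abut were not. Each centre was placed on GENCODE M21 basic transcripts (coding exon before UTR before intron). Sequences came from GRCm38.p6 (RefSeq), whose chromosome names and lengths fit the mm10 peaks. Levels of *Rab18*, *Rab26*, *Rab11a* and *Rab27a*, which share exon bases with a gene on the same strand, are uncertain. Runs join sites up to 300 bases apart. Two-sided exact permutation tests compared biological libraries. Nothing says that these came from separate cultures or animals, so p-values measure the spread between these libraries. The labels give eCLIP and smInput libraries of 1 number the same sample code, so these are pairs. Lin- and CD11b+ libraries share numbers without a common source. Named members had peaks in at least 2 biological libraries of a cell type, or were among the 5 with the most sites, the highest level per kb or the largest shift in percentile in each direction. The gene with the most sites of each list was named too, and further examples were chosen after their values were seen. Merging, placement in gene parts, distances to splice sites and the unpaired permutation test were tested on simulated data, the other steps were not. Python 3.11.15, pandas 2.3.3, NumPy 2.4.6, pysam 0.24.0 and matplotlib 3.10.9 were used. Alternatives covered left-out libraries, technical libraries, filters, motifs and single genes.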

Additional observations from a re-analysis of the deposited data

Results flagged for a closer look

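The intronic share of Rab peaks in Lin- eCLIP library 3 (biological) was 94.4%, far above the other 5 Lin- libraries, which had 60% to 70%. Its gap to the nearest of them was 0.7097 of the whole range. It was 1 of 24 groups of libraries examined, and chance singles out about 1 in 20. The library held 18 Rab peaks, 17 of them in introns, and 78.2% of all its peaks were intronic.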

How the results depend on the processing

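In all, 72 alternatives were computed for 9 results, of which 59 counted as unchanged, by direction or, for counts of members, by a set range. The side of the p threshold was checked only where technical libraries were added, since biological libraries alone cannot reach it. The number of members with a peak fell to 12 in Lin- and 6 in CD11b+ cells when at least 2 biological libraries were required, and to 12 in each at a CLIPper p below 0.001, in part because fewer peaks remained. With biological libraries alone the number was 24 in Lin- and 22 in CD11b+ cells. Leaving out 1 of these libraries gave 18 to 21 members in Lin- and 14 in CD11b+ cells in either case. The difference in the share of peaks on *Rab* genes ranged from 0.151 to 0.227 points without 1 library. With technical libraries counted beside biological ones it was 0.248 points (exact permutation p = 0.00476), where the libraries are not independent. The difference in intronic share ranged from -4.47 to 10.9 points without 1 library, being -1.68 without Lin- library 1, -4.47 without Lin- library 2 and -2.44 without CD11b+ library 2. That of the CA share ranged from -4.45 to 24.8 points, and with CACA and ACAC in place of the hexamers it was -1.61. The cause was not tested. In Lin- cells, eCLIP minus smInput ranged from -0.0556 (without pair 2) to 0.0367 points, and in CD11b+ cells from 0.0737 to 0.312 without 1 pair.

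Pairing libraries by replicate number as a block changed no call. The eCLIP and smInput differences remained 0.00195 points in Lin- (exact paired permutation p = 1.0) and 0.193 in CD11b+ cells (p = 0.5). Between cell types, where a shared number has no common source, the paired differences were 0.192 points for the share on *Rab* genes (exact paired permutation p = 0.5), 10.9 for the intronic (p = 0.5) and 11.8 for the CA share (p = 1.0). Designs this small cannot reach 0.05 and say nothing about stability.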
